A study of Mus musculus with 4 samples.

Results

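Aminoacyl-tRNA synthetases load amino acids onto tRNAs, and this account follows their transcripts in cultured mouse natural killer (NK) cells with and without DKK2 (Dickkopf-2), a secreted modulator of Wnt signalling. The members were chosen by name: 20 enzymes of the cytosol, 16 enzymes of mitochondria, whose gene names end in 2, and the scaffold proteins Aimp1 and Aimp2, which are no enzymes. All 38 stood on a single row of the 37305 rows of the deposited table. NK cells came from spleens of C57BL/6 mice at postnatal day 56 and all of them, controls included, were first grown for 24 hours with 50 ng/ml of IL-15. They were then mock-treated (control, 2 libraries) or given DKK2 at 200 ng/ml (2 libraries) for a further 24 hours. The labels name neither the number of mice nor a pool, and nothing says that replicates came from separate animals or cultures, so any p-value here reflects the spread of 4 libraries, and that spread may be technical. Values are FPKM, fragment counts corrected for transcript length and library depth, so levels can be set side by side between genes.

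As a rule a synthetase recognises a single amino acid and its tRNAs, and the charged tRNA then goes to the ribosome. Mitochondria translate their own few mRNAs with a second, nuclear-encoded set of enzymes, except that Gars (glycine) and Kars (lysine) serve both compartments. In the cytosol, several synthetases sit with Aimp1, Aimp2 and Eef1e1 in the multi-synthetase complex. When amino acids run short, uncharged tRNA activates the kinase GCN2 (Eif2ak4), and the transcription factor ATF4 that follows is known to induce many cytosolic synthetase genes. ATF4 pairs with C/EBP proteins on an element called CARE. In lymphocytes, activation and growth go with high demand for charged tRNA.

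The CARE letters TGATGNAA were searched in the RefSeq promoter windows (GRCm38.p6, 250 bases before to 50 after a start site), because ATF4-listed enzymes are compared with the other cytosolic enzymes. Windows were at hand for 28 of the 38 members. On either strand the letters occurred in 5 of 12 cytosolic enzymes (Aars, Gars, Iars, Tars, Yars), in 0 of 14 mitochondrial enzymes and in 0 of 2 scaffold genes, and in 4.51% of all 27025 genes with a window. All 5 belong to the 7 ATF4-listed enzymes with a window. The stricter TGATGCAA, which TGATGNAA contains, was in Aars, Iars, Tars and Yars and in 1.03% of all genes. In Aars it begins at position -112 from the start site and is not the match printed below, which begins at position 10. The E-box CACGTG, which MYC can bind, was in Aars, Farsb, Iars, Tars and Ears2 and in 8.09% of all genes, and the cyclic AMP element TGACGTCA was in 0 members and in 2.03% of all genes. A match is a description of the letters and not a measured binding site. For each of the 5 enzymes a match of TGATGNAA follows on the strand of the gene, 5′ to 3′, with the match in capitals. TTGCATCA and TTTCATCA are the same letters read on the other strand.
Aars: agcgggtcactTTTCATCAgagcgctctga
Gars: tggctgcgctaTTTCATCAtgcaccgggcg
Iars: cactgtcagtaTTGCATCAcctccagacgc
Tars: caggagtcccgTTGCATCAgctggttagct
Yars: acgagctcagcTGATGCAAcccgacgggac
These stretches lie at chr8:111033840-111033869 for Aars, at chr6:55037960-55037989 for Gars and at chr13:49682126-49682155 for Iars, all on the plus strand. That of Tars lies at chr15:11399655-11399684 on the minus strand, and that of Yars at chr4:129189895-129189924 on the plus strand. GENCODE M21 places the matches of Aars, Iars and Yars inside an annotated exon of the same gene, and the matches of Gars and Tars in no exon.

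The libraries differed in the levels of markers of other cells. NK markers were high throughout, with 10 of 10 above 0 in every library and a summed level of 13548 to 15914 FPKM in the controls and 10023 to 10974 FPKM with DKK2. Most of that sum was the granule protease Gzmb, at 11543 and 9908 FPKM in the controls and 6895 and 6115 FPKM with DKK2, while 7 of 10 NK markers had a log2 fold change above 0 (median 0.10). The 9 monocyte and macrophage markers summed to 8.32 and 224 FPKM in control replicates 1 and 2 and to 688 and 375 FPKM in DKK2 replicates 1 and 2, and all 9 were lowest in control replicate 1, where 2 were at 0. The 7 neutrophil markers summed to 1.16, 62, 3517 and 121 FPKM in the same order, with 2 at 0 in control replicate 1. The 7 T cell markers summed to 66, 160, 245 and 203 FPKM, with 1 at 0 in control replicate 1. Of the 7, 6 were lowest in that library, while Cd28 went the other way, at 37.4, 32.9, 21.2 and 28.7 FPKM. Outside control replicate 1 most of the sum was Cd3g, at 23.1, 87.3, 169 and 117 FPKM in the 4 libraries. Cd3d, Cd3e and Cd3g were higher in DKK2 replicate 1 than in control replicate 2. Cd4 (0.234 against 1.59 FPKM), Cd8b1 (0.204 against 3.89 FPKM), Cd5 and Cd28 were lower there. The 6 B cell markers summed to 0.64, 19, 4.51 and 31.7 FPKM, and the 5 erythroid markers to at most 3.13 FPKM, with 2 at 0 in control replicate 1 and in DKK2 replicate 1. The 5 dendritic cell markers summed to 35.8, 14.3, 30 and 25.8 FPKM, of which Itgax, which NK cells also express, made up 34 FPKM in control replicate 1, and 4 of the 5 were lowest in that library. In these bulk samples fewer cells of a type and less RNA per cell cannot be told apart, and the part of these cells in the results below was not tested. Sequencing depth, read from the spacing of low values, was greatest in control replicate 1, and the other libraries had 0.352 to 0.401 of it.

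**Figure D1:**
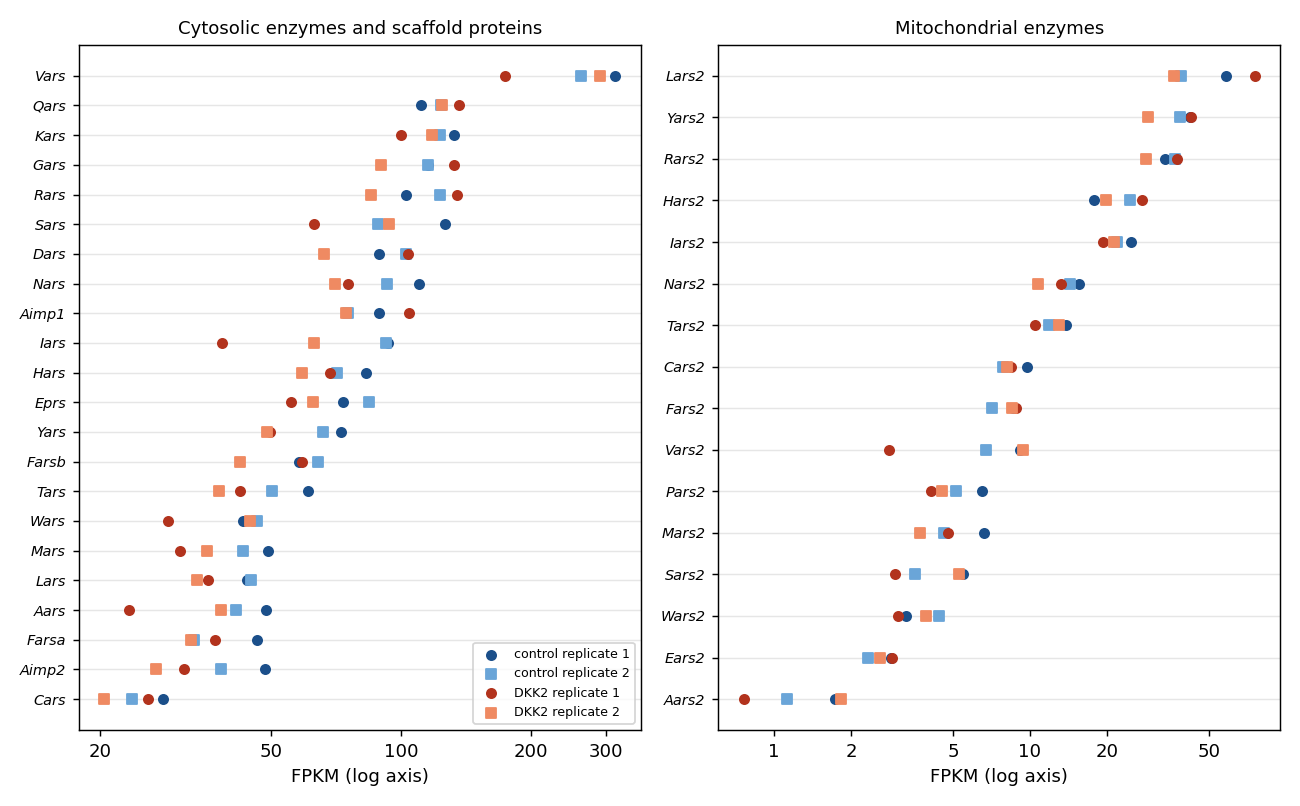
FPKM of each member (log axis) in the 4 libraries, control in blue and DKK2 in red, ordered by mean level, cytosolic enzymes with scaffold proteins on the left and mitochondrial enzymes on the right. Cytosolic means run from 24.5 to 260 FPKM and mitochondrial means from 1.36 to 52.4 FPKM.

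Transcripts of the cytosolic enzymes were abundant and within a narrow band, while those of the mitochondrial enzymes were lower and more spread. The mean level of a cytosolic enzyme lay between 24.5 FPKM (Cars, cysteine) and 260 FPKM (Vars, valine), from the 65th to the 96.8th percentile of the 12275 genes whose mean reached 1 FPKM. Mitochondrial enzymes lay between 1.36 FPKM (Aars2, alanine) and 52.4 FPKM (Lars2, leucine), from the 3.65th to the 81.3th percentile. All 38 members passed that filter. The median over the 20 cytosolic enzymes was 78.3 and 77.7 FPKM in the controls and 57.3 and 60.8 FPKM with DKK2, so the groups did not overlap. The median over the 16 mitochondrial enzymes was 9.46 and 7.51 FPKM against 8.63 and 8.95 FPKM, and these overlapped. Taken as log2(FPKM + 1), the gap between the medians of the roles was 2.92 and 3.20 in the controls and 2.60 and 2.64 with DKK2, and the difference of the median fold changes was -0.21 (-0.11 without control replicate 2).

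No member differed between the groups past the threshold. Limma with Benjamini-Hochberg adjustment over 12275 genes called 0 of the 38 members at an adjusted p under 0.05, against 0.0326% of all genes, and the smallest adjusted p among the members was 1. At an unadjusted p under 0.05 there was 1 member, Iars, against 1.84% of all genes. For 2 against 2 libraries the smallest p of an exact permutation test is 0.333, so limma alone was used for single genes. What follows gives levels and fitted differences, as log2 fold changes of DKK2 minus control on the log2(FPKM + 1) scale with the standard error (SE) of that fit, and no member's difference is a called change.

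The cytosolic enzymes nevertheless lay to one side. In the fit 19 of 20 had a log2 fold change below 0, where 56.4% of all genes did, and the median was -0.33 against -0.05 over all genes tested. In 10 of 20 both DKK2 libraries were below both controls, against 14.8% of all genes, and in 1 of 20, Qars, both were above, against 11.8%. The lowest of the 4 libraries was a DKK2 library for 19 of 20, against 61.2% of all genes. It was DKK2 replicate 1 for 8 enzymes, DKK2 replicate 2 for 11 and control replicate 1 for Qars. The genes are not independent of each other, and these counts come from the same 4 libraries. The members were also chosen with earlier results of these data known, so the counts are not independent of that choice. The median was -0.31 without control replicate 1 and -0.36 without DKK2 replicate 1, where all genes had 0.01 and -0.01. Without DKK2 replicate 1 the remaining DKK2 library was below both controls in 16 of 20, against 34.2% of all genes. Without DKK2 replicate 2 this held for 13 of 20, against 41.8% of all genes, and 15 of 20 were below 0 in the fit, against 55.6%.

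**Figure D2:**
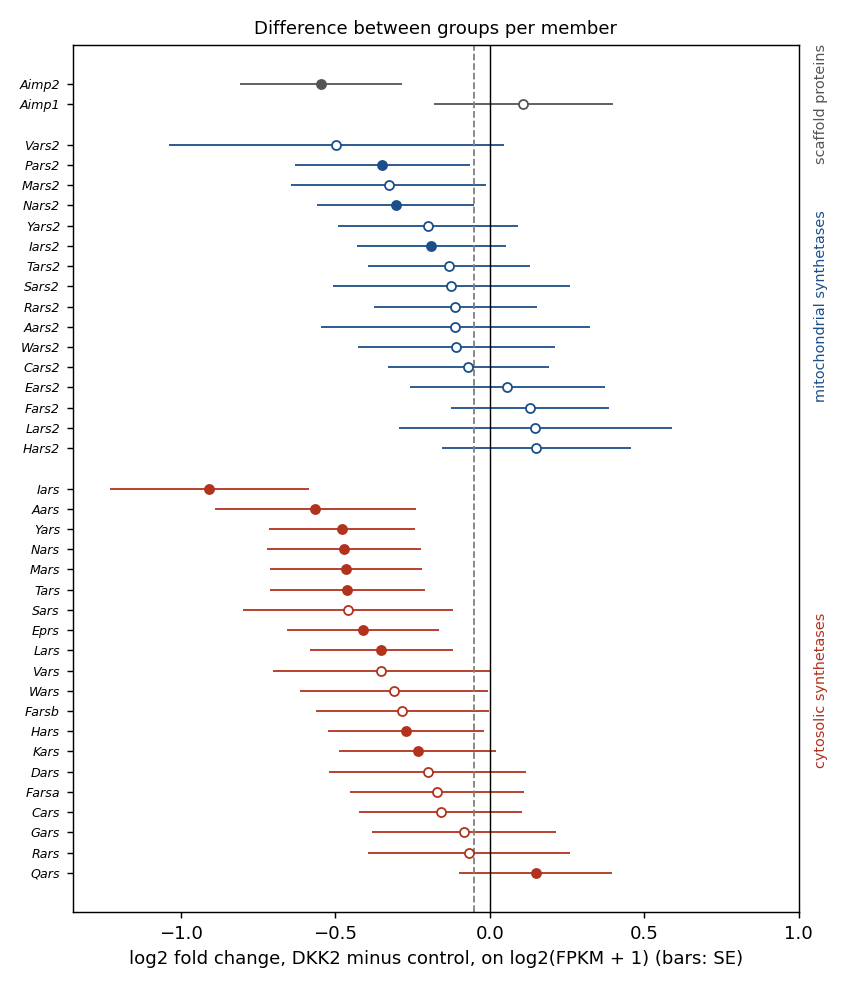
Log2 fold change of each member (DKK2 minus control on log2(FPKM + 1), bars SE), by role, with filled points where both DKK2 libraries lay below or both above both controls. The dashed line is the median of all genes tested, -0.05. Most cytosolic points lie left of it, and Iars lies farthest out at -0.91.

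Iars, the isoleucine enzyme of the complex, showed the largest difference among the members. It stood at 93.6 and 92.4 FPKM in control replicates 1 and 2 and at 38.3 and 62.8 FPKM in DKK2 replicates 1 and 2. The controls nearly coincided, and both DKK2 libraries lay well below them while differing from each other. Its log2 fold change was -0.91 ± 0.32 SE (95% interval -1.74 to -0.07 before any adjustment). It was -0.56 without DKK2 replicate 1 and -0.90 without control replicate 1.

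Among the other enzymes of the multi-synthetase complex, Eprs, which carries both the glutamate and the proline activity, lay at 73.6 and 84.2 FPKM in the controls and 55.7 and 62.6 FPKM with DKK2 (-0.41 ± 0.25). Mars, the methionine enzyme, stood at 49.2 and 42.9 FPKM against 30.8 and 35.4 FPKM (-0.47 ± 0.25). Its exons overlap those of Ddit3 on the opposite strand, so if strand was not used in counting, the reads of these genes cannot be told apart. Lars, the leucine enzyme, which also serves as a leucine sensor for mTORC1, had levels of 44 and 44.8 FPKM against 35.6 and 33.6 FPKM (-0.35 ± 0.23). In Eprs, Mars and Lars both DKK2 libraries were the lower ones, and in Lars the values within each group differed least.

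Kars, the lysine enzyme, lay at 133 and 123 FPKM in the controls and 99.9 and 118 FPKM with DKK2 (-0.23 ± 0.25), just without overlap. Rars (arginine) and Dars (aspartate) did overlap. Rars stood at 103 and 123 FPKM against 135 and 85.2 FPKM, with the DKK2 libraries as the highest and the lowest of the 4. Dars had levels of 89.1 and 103 FPKM against 104 and 66.5 FPKM, in the same arrangement. Qars, the glutamine enzyme, was alone among the cytosolic enzymes in lying higher in both DKK2 libraries, at 136 and 125 FPKM against 112 and 124 FPKM (0.15 ± 0.25, interval -0.49 to 0.79). Of the 8 complex enzymes 7 had a fold change below 0 (median -0.29), and of the 12 outside it 12 did (median -0.33), against 56.4% of all genes.

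Outside the complex, Aars, the alanine enzyme, lay at 48.5 and 41.3 FPKM in the controls and 23.4 and 38.3 FPKM with DKK2 (-0.56 ± 0.33). DKK2 replicate 1 was far below the rest, and DKK2 replicate 2 was close to control replicate 2. Its exons share bases with Exosc6 on the same strand, so reads there could belong to either gene. Yars, the tyrosine enzyme, stood at 72.5 and 65.8 FPKM against 49.6 and 49 FPKM (-0.48 ± 0.24). Nars, the asparagine enzyme, had levels of 110 and 93 FPKM against 75.4 and 70.5 FPKM (-0.47 ± 0.25). Tars, the threonine enzyme, lay at 61 and 50.3 FPKM against 42.3 and 37.8 FPKM (-0.46 ± 0.25). In Yars, Nars and Tars the DKK2 libraries were close to each other, and the groups did not overlap. Hars, the histidine enzyme, stood at 83.1 and 71.2 FPKM against 68.5 and 59 FPKM (-0.27 ± 0.25), with DKK2 replicate 1 only just below control replicate 2. Its exons overlap those of Hars2 on the opposite strand, with the same limit as for Mars.

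Several enzymes were low in 1 DKK2 library only. Vars, the valine enzyme, which is bound to the elongation factor eEF1, was the most abundant member at 315 and 262 FPKM in the controls and 175 and 290 FPKM with DKK2 (-0.35 ± 0.35). Without DKK2 replicate 1 its fold change was 0.01. Sars, the serine enzyme, had levels of 127 and 88.4 FPKM against 62.8 and 93.7 FPKM. Wars, the tryptophan enzyme, known to be induced by interferon-gamma, lay at 43.1 and 46.4 FPKM against 28.9 and 44.6 FPKM (-0.31 ± 0.30). In all these DKK2 replicate 1 was lowest and DKK2 replicate 2 lay between the controls.

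Another set was lowest in DKK2 replicate 2 instead. Gars, the glycine enzyme, stood at 116 and 115 FPKM in the controls and at 133 and 89.7 FPKM with DKK2. Farsb, the beta subunit of the phenylalanine enzyme, had levels of 58 and 64.3 FPKM against 58.9 and 42.4 FPKM. Its alpha subunit Farsa lay at 46.3 and 33.1 FPKM against 37 and 32.6 FPKM, so both subunits were lowest in the same library. Cars, the cysteine enzyme and the lowest cytosolic member, stood at 28.1 and 23.7 FPKM against 25.9 and 20.5 FPKM (-0.16 ± 0.26). In each of these the groups overlapped.

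The cytosolic enzymes were also split by their known link to ATF4. This list was chosen with earlier results of these data known, so the split is not independent of the values set against it. Of 12 enzymes listed as ATF4 targets (Aars, Cars, Eprs, Gars, Iars, Lars, Mars, Nars, Sars, Tars, Wars, Yars), 12 had a fold change below 0, in 8 the DKK2 libraries were both the lower ones, and the median was -0.46. Over all genes 56.4% were below 0 and in 14.8% the DKK2 libraries were both the lower ones. Of the other 8 (Dars, Farsa, Farsb, Hars, Kars, Qars, Rars, Vars), 7 were below 0, in 2 the DKK2 libraries were both the lower ones, and the median was -0.22. Leaving out control replicate 1, control replicate 2, DKK2 replicate 1 or DKK2 replicate 2 gave 9, 10, 10 and 10 of 12 and 3, 4, 6 and 3 of 8, against 23.8%, 37.5%, 34.2% and 41.8% of all genes. Gars, Cars, Sars and Wars are the ATF4-listed enzymes whose groups overlapped, and Gars carries a CARE match. The other 4 enzymes with a CARE match, Aars, Iars, Tars and Yars, did not overlap. Aars, Iars and Tars carry the E-box too, as do Farsb and Ears2, whose groups overlapped. Eprs, Hars, Kars, Lars, Mars and Nars, with no CARE match or no window, also lay lower in both DKK2 libraries. Whether a match goes with groups lying apart was not tested. By catalytic fold, the 10 class I enzymes had a median of -0.35 and the 10 class II enzymes -0.28. The difference between any of these subsets was not tested.

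**Figure D3:**
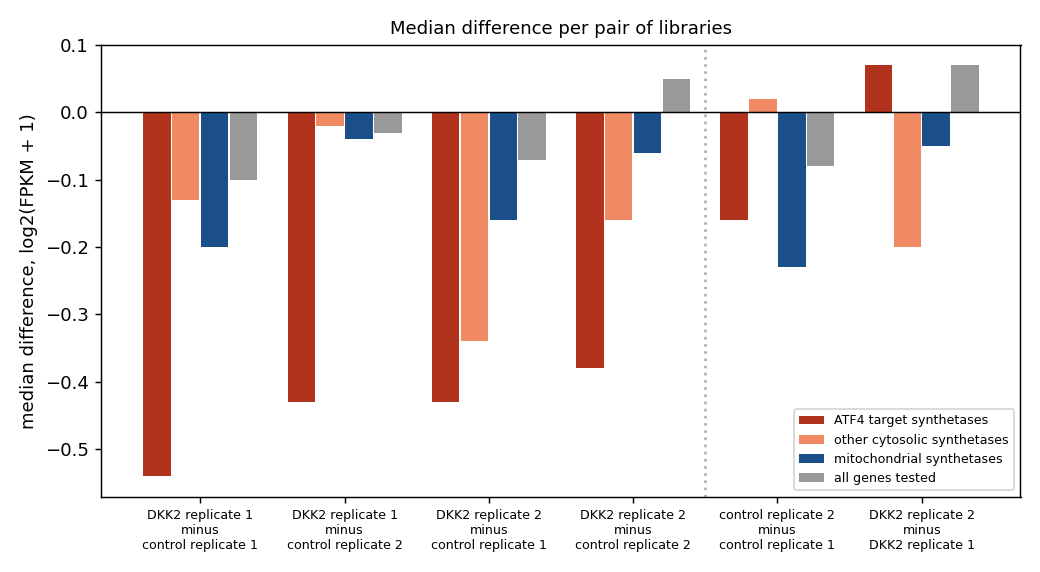
Median difference in log2(FPKM + 1) for each pair of libraries, for ATF4-listed enzymes (12), the other cytosolic enzymes (8), mitochondrial enzymes (16) and all genes tested (12275); the 2 sets of bars right of the dotted line compare replicates of 1 group. The ATF4-listed bars lie between -0.54 and -0.38 in all pairs of DKK2 and control, which share libraries.

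Taken pair by pair, the ATF4-listed enzymes had medians of -0.54 and -0.43 in DKK2 replicate 1 against control replicates 1 and 2, and of -0.43 and -0.38 in DKK2 replicate 2. The pairs share libraries and are not independent. Replicates of a group differed less, with -0.16 between the controls (replicate 2 minus replicate 1) and 0.07 between the DKK2 libraries. The other cytosolic enzymes had -0.13 and -0.02 in DKK2 replicate 1 and -0.34 and -0.16 in DKK2 replicate 2, against 0.02 and -0.20 between replicates, so of these pairs only DKK2 replicate 2 against control replicate 1 exceeded the difference between the DKK2 libraries. Over all genes tested the same 4 medians were -0.10, -0.03, -0.07 and 0.05.

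The mitochondrial enzymes stayed nearer to the background. In the fit 12 of 16 were below 0, against 56.4% of all genes, with a median of -0.12. In 3 of 16 both DKK2 libraries were below both controls, against 14.8% of all genes. These 3 were Iars2, Nars2 and Pars2. Iars2, the mitochondrial isoleucine enzyme, had levels of 24.8 and 21.8 FPKM in the controls and 19.3 and 21.4 FPKM with DKK2 (-0.19 ± 0.24). Nars2 (asparagine) lay at 15.6 and 14.3 FPKM against 13.3 and 10.7 FPKM (-0.30 ± 0.25), and Pars2 (proline) at 6.48 and 5.15 FPKM against 4.12 and 4.54 FPKM (-0.35 ± 0.28). In each of the 3 the gap between the groups was smaller than the difference between the controls. The same held for Aars, Hars, Kars and Tars among the cytosolic enzymes whose groups did not overlap, and for Aimp2. The mitochondrial median was -0.25 without control replicate 2, and the median difference between the controls was -0.23, where 13 of 16 were lower in control replicate 2 than in control replicate 1.

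Among the abundant mitochondrial enzymes, Lars2 stood at 58.2 and 38.8 FPKM in the controls and 75.8 and 36.7 FPKM with DKK2 (0.15 ± 0.44), so replicate 1 was high and replicate 2 low in both groups. Without DKK2 replicate 1 its fold change was -0.37, and without control replicate 2 it was -0.14. Yars2 had levels of 42.4 and 38.7 FPKM against 42.6 and 28.9 FPKM. Rars2 lay at 33.8 and 37 FPKM against 37.5 and 28.5 FPKM. Hars2 stood at 17.8 and 24.7 FPKM against 27.5 and 19.9 FPKM. These last 3 were higher in DKK2 replicate 1 than in DKK2 replicate 2, and their groups overlapped.

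Vars2, the mitochondrial valine enzyme, varied most of all 38, by 3.35 times between libraries. It had levels of 9.19 and 6.72 FPKM in the controls and 2.80 and 9.39 FPKM with DKK2 (-0.50 ± 0.54), and without DKK2 replicate 1 its fold change was 0.23. Its cytosolic counterpart Vars was likewise lowest in DKK2 replicate 1. Mars2 (methionine) lay at 6.63 and 4.63 FPKM against 4.80 and 3.70 FPKM (-0.33 ± 0.32), and Sars2 (serine) at 5.50 and 3.55 FPKM against 2.98 and 5.26 FPKM. The rest varied less: Tars2 ranged from 10.5 to 13.9 FPKM, Cars2 from 7.89 to 9.74, Fars2 from 7.14 to 8.80, Wars2 from 3.06 to 4.43 and Ears2 from 2.32 to 2.89, and in none of them were the groups apart.

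Aars2 was the least abundant member, at 1.74 and 1.12 FPKM in the controls and 0.761 and 1.83 FPKM with DKK2 (-0.11 ± 0.43). It rests on few fragments, an estimated 55 in DKK2 replicate 1, where counting error alone is about 13%. Its fold change was 0.07 without control replicate 1 and 0.23 without DKK2 replicate 1. For each other member the estimate was at least 121 fragments for every value, which would put counting error at about 9.1% or less. These estimates take 1 fragment in a transcript of 1 kb as 0.0183 FPKM in control replicate 1 and 0.0457 to 0.0521 FPKM in the other libraries. They use the longest transcript of each gene in GENCODE M21. Where shorter transcripts prevail, the fragments are fewer and the error larger, so these figures are no strict bounds.

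**Figure D4:**
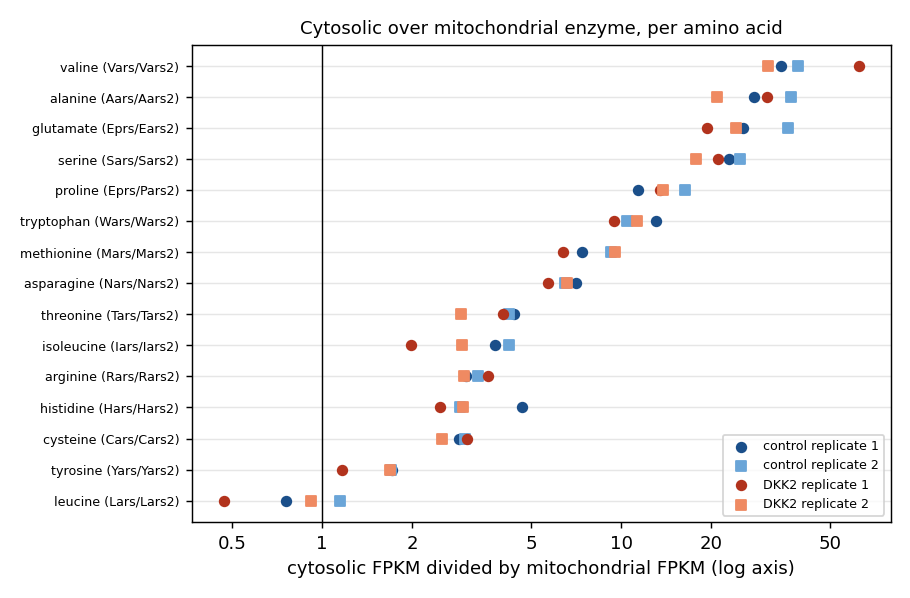
Cytosolic FPKM divided by mitochondrial FPKM (log axis) for 15 amino acids in the 4 libraries, with a line at equal levels. Leucine is the only amino acid whose ratio lies below 1, in 3 of the 4 libraries.

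For 15 amino acids both a cytosolic and a mitochondrial member are listed, with Eprs standing for glutamate and for proline. The cytosolic transcript was the higher in every library for 14 of them. Leucine was the exception, with Lars over Lars2 at 0.756 and 1.15 in the controls and 0.469 and 0.916 with DKK2. The ratio was widest for valine, where Vars over Vars2 was 34.3 and 39 in the controls and 62.3 and 30.9 with DKK2. It was narrow for tyrosine, with Yars over Yars2 at 1.71 and 1.70 against 1.17 and 1.69. The ratio lay lower in both DKK2 libraries than in both controls for 5 of the 15 amino acids (glutamate, isoleucine, serine, threonine, tyrosine) and higher for 0. No share over all genes is at hand for such ratios, so this count has no background and is not read as a shift. For tyrosine the groups were apart only by 1.69 against 1.70. Isoleucine had the clearest gap, with Iars over Iars2 at 3.78 and 4.23 against 1.99 and 2.94. The median ratio over the 15 was 7.07 and 6.49 in the controls and 5.68 and 6.57 with DKK2, which overlap.

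The scaffold proteins went separate ways. Aimp2, a core scaffold of the complex, stood at 48.3 and 38.2 FPKM in the controls and 31.4 and 27 FPKM with DKK2, without overlap (-0.55 ± 0.26, interval -1.22 to 0.13). Its exons overlap those of Eif2ak1 on the opposite strand. Aimp1, which is also secreted as a cytokine, had levels of 88.8 and 75.6 FPKM against 104 and 74.8 FPKM (0.11 ± 0.29). DKK2 replicate 2 was close to control replicate 2, and without DKK2 replicate 1 the fold change was -0.13, without control replicate 2 it was -0.01. Eef1e1, the remaining scaffold protein of the complex, lay at 71.1 and 57.2 FPKM against 64.1 and 31 FPKM (-0.51 ± 0.41), low in DKK2 replicate 2 only.

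**Figure D5:**
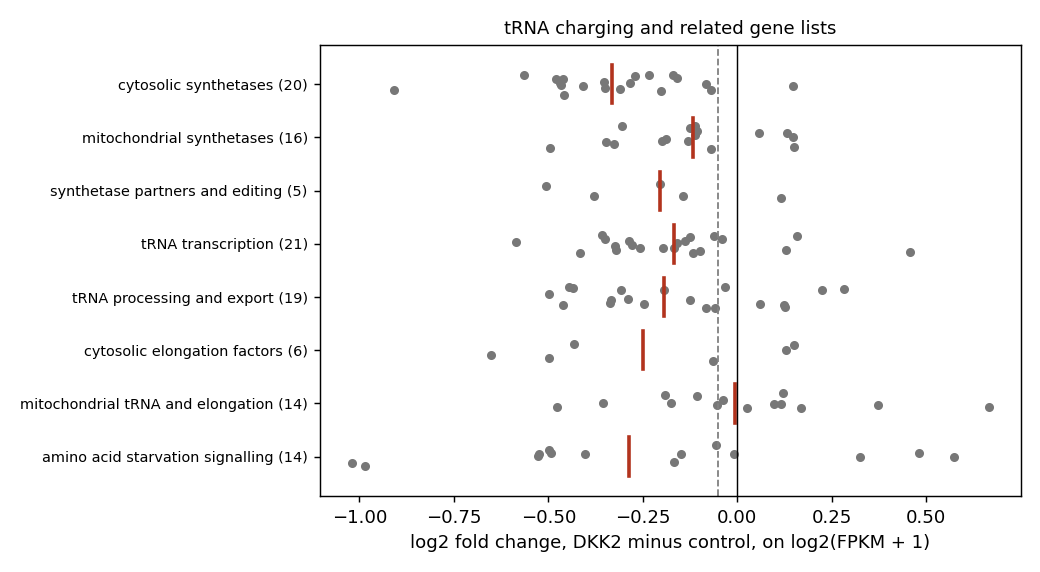
Log2 fold changes of single genes (grey points) and list medians (red bars) for the synthetases and 6 related lists, with the number tested in brackets; the dashed line is the median of all genes tested, -0.05. The cytosolic synthetases have the lowest median, -0.33, and mitochondrial tRNA and elongation genes the highest, -0.01.

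Other steps of tRNA supply were described from lists of the pathway's genes. Limma called 0 of them (adjusted p of 1 for each gene named), and 1, Slc7a5, had an unadjusted p under 0.05, against 1.84% of all genes. RNA polymerase III and its factors, which transcribe tRNA genes, had 18 of 21 below 0, against 56.4% of all genes, and a median of -0.17. In 6 of 21 both DKK2 libraries lay below both controls, against 14.8% of all genes. The polymerase subunit Polr3d stood at 11.5 and 9.33 FPKM in the controls and 7.26 and 5.94 FPKM with DKK2 (-0.58 ± 0.27). Polr3f had levels of 14.5 and 15.3 FPKM against 10.1 and 11.8 FPKM. Polr3gl, an alternative subunit, lay at 18.2 and 22 FPKM against 29.5 and 26.3 FPKM (0.46 ± 0.25), the only gene of the list with both DKK2 libraries above both controls.

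Genes of tRNA processing and export had 14 of 19 below 0 (median -0.19), against 56.4% of all genes. In 5 of 19 both DKK2 libraries lay below both controls, against 14.8%, and in 0 both lay above, against 11.8%. In DKK2 replicate 2 the median was -0.54 and -0.31 against control replicates 1 and 2, while in DKK2 replicate 1 it was 0.00 and 0.05. Xpot, the nuclear exporter of tRNA, stood at 13.5 and 14.9 FPKM against 13.4 and 8.99 FPKM (-0.34 ± 0.29). Pop1, a subunit of RNase P, lay at 26.3 and 25.5 FPKM against 24.4 and 14 FPKM, and Rpp40, another, at 23.6 and 27.5 FPKM against 26.5 and 12.8 FPKM. Synthetase partners and editing factors had 4 of 5 below 0 (median -0.21), against the same 56.4%. Among them was Dtd1, which removes D-amino acids from tRNA, at 19.3 and 13 FPKM against 13 and 11 FPKM.

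Cytosolic elongation factors and their like had 4 of 6 below 0 (median -0.25), against 56.4% of all genes. Eef2, the translocase, stood at 973 and 647 FPKM in the controls and 291 and 874 FPKM with DKK2, again low in DKK2 replicate 1 alone. Eef1d stood at 445 and 300 FPKM against 238 and 281 FPKM, and Eif5a at 961 and 773 FPKM against 651 and 627 FPKM, both without overlap. These were the 2 of 6 with both DKK2 libraries below both controls, against 14.8% of all genes. In 1 of 6 both lay above, against 11.8%. Mitochondrial tRNA and elongation genes were even, 7 of 14 below 0 (median -0.01), against 56.4% of all genes. The pseudouridine synthase Pus1 lay at 41.5 and 29 FPKM against 22.5 and 26.9 FPKM, and the tRNA modifier Trit1 at 6.64 and 11 FPKM against 19.3 and 10.4 FPKM.

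The sensors and effectors of amino acid shortage lay mostly below 0. Of 14 tested genes 11 were below 0 (median -0.29), against 56.4% of all genes, and in 5 both DKK2 libraries were below both controls, against 14.8%. In 1, Eif2ak4, both were above, against 11.8%. Slc7a5, a transporter of leucine and other large neutral amino acids and a known ATF4 target, stood at 61.7 and 49.1 FPKM in the controls and 23.8 and 31.3 FPKM with DKK2 (-0.99 ± 0.28). As for Iars, the groups were well apart. Atf4 itself had levels of 228 and 149 FPKM in the controls and 239 and 131 FPKM with DKK2 (-0.06 ± 0.42), with replicate 1 high in both groups. Eif2ak4, which senses uncharged tRNA, lay at 5.11 and 6.38 FPKM against 6.78 and 8.09 FPKM (0.32 ± 0.28), higher in both DKK2 libraries. Its partner Gcn1l1 stood at 34.1 and 22.2 FPKM against 7.51 and 22.3 FPKM, low in DKK2 replicate 1 only. Ddit3, the stress factor CHOP and a known ATF4 target, had levels of 10.7 and 7.6 FPKM against 9.44 and 20.4 FPKM, and the overlap with Mars applies to it too. ATF4 protein was not measured here.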

How the data were processed

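The deposited table gives 1 FPKM value per gene and library, computed by the authors and named so per the file headers. Tools listed in the submitters' processing notes, without roles, are TopHat2 2.1.0 and Cuffdiff 2.1.0 beside CASAVA and edgeR, and the build is mm9. The annotation, the use of strand and the sharing of multiply mapped fragments are not given in the sources used here. Each of the 4 value columns matched a sample by name. FPKM carries no counts, so log2(FPKM + 1) was compared with limma 3.58.1 in R 4.3.3 (eBayes with a trend, two-sided, Benjamini-Hochberg) over the 12275 genes whose mean reached 1 FPKM. The fit was also run on simulated data with the same spread for every gene. The spread of the real libraries differs between genes, so that run does not show how the fit performs on them. The median SE was 0.33. Relative depth came from the most frequent ratio of values under 0.3 FPKM between libraries. In GENCODE M21 (GRCm38), 15 members share exon bases with a gene on the opposite strand, and Aars also with Exosc6 on the same strand. That build differs from the authors', so coordinates belong only to the promoter sequences. The members and lists were chosen with earlier results of these data known. Fold changes are given for members whose groups do not overlap, the highest, lowest and 3 largest changes of each role, and Wars. Of the other lists, at most the 3 largest changes and Eef1e1, Xpot, Eif2ak4 and Atf4 are named. Alternatives were another pseudocount, no filter, other scalings, no trend, a replicate block and leaving out each library. Not every gene and promoter match that these rules cover is reported here.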

Additional observations from a re-analysis of the deposited data

How the results depend on the processing

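No alternative called any of the 38 members. The count of all genes called was 4, and it was 0 with no filter on low values (949 at an unadjusted p under 0.05) and 0 in each fit without 1 library (141 to 865 at an unadjusted p under 0.05). Fits without a library assume that the lone sample of a group varies like the others. With the replicate number as a block it was 8, and no member was called. Same-numbered libraries did not deviate together (r = 0.012 across genes), so the numbers are not taken to pair the samples. The cytosolic median of -0.33 was -0.28 after quantile normalization and -0.26 with equal library medians, which set the median of all genes to -0.04 and 0.01. Equal medians left 18 of 20 cytosolic enzymes below 0 and moved the share of all genes below 0 from 56.4% to 48.7%. Without 1 library the cytosolic median lay between -0.37 and -0.31 and the mitochondrial one between -0.25 and -0.08. The count of 10 cytosolic enzymes with both DKK2 libraries below both controls was 12 to 16 when a library was left out, an alternative chosen after seeing the data. It was 16 without DKK2 replicate 1 and 13 without DKK2 replicate 2, where 34.2% and 41.8% of all genes met the same rule, and 15 of 20 were below 0 in the fit without DKK2 replicate 2. Fewer libraries make that rule easier to meet. Of the members given with a fold change, 6 turned sign in at least 1 fit without a library and in no other setting. Over these fits Cars lay between -0.32 and 0.00 (without DKK2 replicate 2), Vars between -0.71 and 0.01 (without DKK2 replicate 1), Vars2 between -1.22 and 0.23 (without DKK2 replicate 1), and Aars2 between -0.45 and 0.23 (without DKK2 replicate 1; 0.07 without control replicate 1). Lars2 lay between -0.37 (without DKK2 replicate 1; -0.14 without control replicate 2) and 0.66, and Aimp1 between -0.13 (without DKK2 replicate 1; -0.01 without control replicate 2) and 0.35. With 2 libraries a group, a difference the size of the median SE, 0.33, could not be told from replicate spread.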
